A study of Mus musculus with 4 samples.

Results

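The 10 receptor genes through which endothelium senses cytokines were followed across the vessel subsets of mouse ear skin: *Il1r1*, *Il6ra*, *Il4ra*, *Osmr*, *Tnfrsf1a*, *Tnfrsf1b* and *Ifngr1*, which bind ligands, and *Il6st*, *Il10rb* and *Csf2rb*, which are subunits shared by several receptors. They are 10 of the 46517 genes counted, they were listed by name, and none of them took part in the grouping of the cells. The cells were blood vascular endothelial cells (BECs) of the ear dermis of untreated, wild-type, female C57Bl/6 mice (C57BL/6 J in the study's methods), adults of 12 to 26 weeks by the labels, sorted as CD31+/CD45-/Lyve1- and sequenced one cell per well by SMART-seq2, a full-length plate method. There were 2 replicates, each of 2 plates (A and B) of 384 wells, and the design text names a pool of 6 mice without stating whether each replicate was a pool of its own. The study's methods name a younger age range than the labels. Since nothing says that the replicates came from separate animals, p-values measure only the spread between these samples.

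After removal of poor wells and of wells with other cell types, 338 wells of replicate 1 and 363 wells of replicate 2 were kept. Clusters named from markers gave 24 and 25 artery-like wells, 121 and 24 capillary-like wells, and 54 and 50 vein-like wells in replicates 1 and 2. A further 97 and 144 endothelial wells belonged to 2 clusters that took no class name. In 1 of these, with 18 and 62 wells, 3 artery markers were raised. It lost the artery name only through a naming rule added after the data had been seen. Without that rule 42 and 87 wells were artery-like. Another 42 and 120 wells belonged to a cluster with raised mural, fibroblast, lymphatic and keratinocyte markers, which was left out of the endothelial total of 296 and 243 wells. The markers fitted the class names: summed artery markers were 8851 and 6989 CPM (counts scaled to the same total in every well) in artery-like wells and 1567 and 1660 CPM in vein-like wells, and summed vein markers were 7270 and 7993 CPM in vein-like wells against 619 and 702 CPM in artery-like wells. Capillary markers separated the classes less, at 20896 and 9899 CPM in capillary-like wells, 13116 and 2637 CPM in artery-like wells and 10081 and 5695 CPM in vein-like wells, so both other classes of replicate 1 exceeded the capillary-like wells of replicate 2. The median well of a class held between 82531 and 187676 reads on genes, and the capillary-like wells of replicate 2 were the shallowest, so shares of wells were compared after each well had been thinned to 20000 reads, which left out 7 of these wells and 1 artery-like well of the same replicate. No 2 wells held identical counts.

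Cytokine receptors work as assemblies. A subunit that binds one ligand pairs with a subunit that many ligands share, such as gp130 (*Il6st*) for the interleukin-6 family, the interleukin-10 receptor beta chain (*Il10rb*) for interleukin-10, interleukin-22 and interferon lambda, or the common beta chain (*Csf2rb*) for GM-CSF, interleukin-3 and interleukin-5. Class I and II receptors signal through Janus kinases and STAT factors, whereas the interleukin-1 and TNF receptors signal through adaptor proteins to NF-kB and MAP kinases. In post-capillary venules these cytokines are known for inducing adhesion molecules on which leukocytes roll and arrest.

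Compared per exon length, the 10 genes spanned a wide range of levels over all endothelial wells. *Tnfrsf1a*, the broadly expressed receptor for TNF, had the highest level, 595 and 527 TPM (reads per kilobase of exon as a share of all such values in a well) in replicates 1 and 2, or 561 ± 48.4 TPM (SD, n = 2). *Ifngr1*, the ligand-binding chain of the interferon-gamma receptor, followed at 302 ± 191 TPM, *Il6st* at 203 ± 66.7 TPM, *Csf2rb* at 153 ± 75.1 TPM, *Il10rb* at 146 ± 43 TPM and *Osmr*, the oncostatin M receptor, at 106 ± 64.5 TPM (SD, n = 2). In this run from *Ifngr1* to *Osmr*, each gene differed from the next by less than the larger of their SDs. The lower group held *Tnfrsf1b*, the second TNF receptor, at 39 ± 15.6 TPM, *Il4ra*, which binds interleukin-4, at 37.6 ± 5.64 TPM, *Il1r1*, the signalling receptor for interleukin-1, at 17.8 ± 1.9 TPM and *Il6ra*, which binds interleukin-6, at 5.53 ± 0.047 TPM (SD, n = 2). The first 2 of these did not differ beyond their spread, and *Il6ra* was lowest in both replicates. A well of replicate 1 held a median of 7 of the 10 genes with a read and a well of replicate 2 a median of 5, and after thinning these were 5 and 4.

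Sequences bear on how far the counts of these genes can be told apart, since the reads were 50 bases long. *Csf2rb* has a neighbouring near-identical copy, *Csf2rb2*, a receptor chain of the mouse that serves interleukin-3. Their longest coding sequences are 95.2% identical over 2628 aligned bases, with a longest shared run of 242 bases, and 892 of the 7268 distinct 50-base stretches of *Csf2rb* transcripts (12.3%) also occur in *Csf2rb2*. How the counting treated such reads is not given in the sources used here, so both counts are uncertain by what the shared stretches hold. The pairs of 60-base stretches printed here, from the GENCODE vM21 transcripts on GRCm38, lie in exon 4 of each gene and show a most divergent and an identical part within 1 exon. Capitals mark the 13 bases that differ in the first pair.
*Csf2rb*, chr15:78338893-78338952, plus strand: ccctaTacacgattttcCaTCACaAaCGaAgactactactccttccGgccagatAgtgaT
*Csf2rb2*, chr15:78294379-78294438, minus strand: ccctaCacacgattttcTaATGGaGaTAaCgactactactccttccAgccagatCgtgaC
*Csf2rb*, chr15:78338834-78338893, plus strand: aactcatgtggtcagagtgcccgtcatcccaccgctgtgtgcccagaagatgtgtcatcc
*Csf2rb2*, chr15:78294438-78294497, minus strand: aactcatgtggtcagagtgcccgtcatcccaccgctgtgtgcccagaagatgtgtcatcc
Among the other members, *Il10rb* shared 13.9% of its 50-base stretches with other genes, nearly all with *Gm21970*, whose annotation overlaps it, *Il4ra* shared 8.44% with *Gm44876* and *Il6ra* 2.29% with *Gm42809*. *Il6st*, *Il1r1*, *Tnfrsf1a* and *Tnfrsf1b* shared none.

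*Il6st* came nearest to the threshold among these receptor genes for any difference between the vessel classes (adjusted p = 0.119 by edgeR). It encodes gp130, the signal-transducing chain for interleukin-6, interleukin-11, leukaemia inhibitory factor and oncostatin M, and lies on chr13:112464070-112510086 (plus strand, GRCm38). Its mean level was 1505 and 1758 CPM in vein-like wells of replicates 1 and 2, 360 and 425 CPM in artery-like wells, and 276 and 159 CPM in capillary-like wells. Both vein-like values lay above all other class values, and the same held for single plates, at 1626, 1433, 1764 and 1749 CPM in vein-like wells against a highest value of 528 CPM on any plate of the other classes. After thinning, 51 of 54 and 47 of 50 vein-like wells had a read (94.4% and 94%), against 70.8% and 66.7% of artery-like and 60.3% and 58.8% of capillary-like wells. The endothelial wells without a class name lay between, with 677 and 970 CPM, and their thinned shares of 93.8% and 84.2% were nearer to the vein-like ones.

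The test gave *Il6st* a log2 fold change of 2.17 ± 0.31 (SE) when vein-like wells were set against the average of both other classes, and this missed the threshold of 0.05 (adjusted p = 0.0557, edgeR quasi-likelihood test on summed counts with the replicate as a block). Against artery-like wells alone, the log2 fold change was -1.81 ± 0.39 in artery-like minus vein-like direction (edgeR, adjusted p = 0.365), and the capillary-like log2 fold change relative to the average of the others was -1.62 ± 0.35 (edgeR, adjusted p = 0.787). Without the low-count filter *Il6st* passed in both of these comparisons as well (edgeR, adjusted p = 0.00165 and 0.0058), and with thinned wells against artery-like wells (edgeR, adjusted p = 0.0251). With plate A of each replicate alone the vein-like log2 fold change was 2.71 (edgeR, adjusted p = 0.00301), with plate B alone 2.08 (edgeR, adjusted p = 0.0403), and it was 2.26 in replicate 1 and 2.08 in replicate 2, with no test. When wells with up to 300 CPM of non-endothelial genes were kept, it was 1.15 (edgeR, adjusted p = 0.86).

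**Figure D1:**
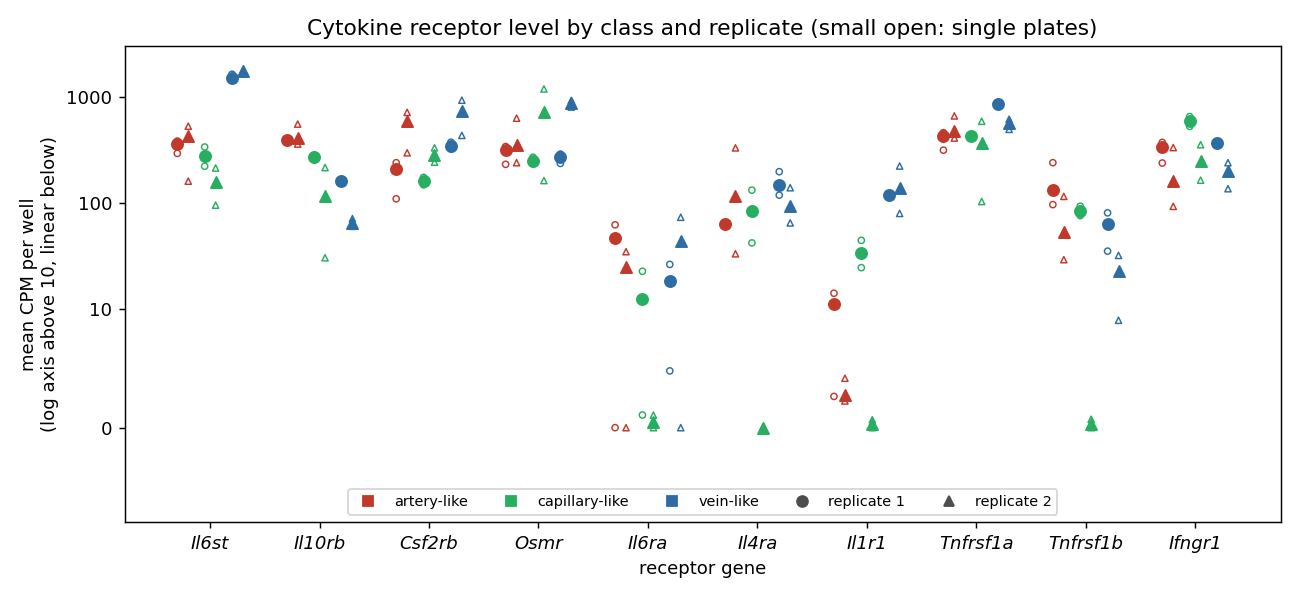
Mean CPM per well of the 10 receptor genes (vertical axis, logarithmic above 10 CPM and linear below) in artery-, capillary- and vein-like wells; filled circles are replicate 1, filled triangles replicate 2 and small open symbols single plates. The vein-like *Il6st* values of 1505 and 1758 CPM stand above every other class value of that gene, whereas *Il10rb* is highest in artery-like wells, at 391 and 413 CPM.

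The partners with which gp130 works were also measured. *Osmr*, on chr15:6813577-6874969, had 313 and 349 CPM in artery-like wells, 251 and 715 CPM in capillary-like wells and 269 and 873 CPM in vein-like wells. On single plates the capillary-like means were 269 and 234 CPM in replicate 1 and 163 and 1182 CPM in replicate 2, so the replicate 2 value came from plate B. In replicate 1 the class means lay close together. The log2 fold change of vein-like wells was -0.11 ± 0.52 (SE; edgeR, adjusted p = 1), with a sign that turned in 8 alternatives. Thinned shares of *Osmr* were highest in vein-like wells, at 79.6% and 70%, against 70.8% and 45.8% in artery-like and 57% and 52.9% in capillary-like wells. *Lifr*, the receptor for leukaemia inhibitory factor, had 343 and 356 CPM in vein-like wells, 163 and 149 CPM in artery-like wells and 146 and 190 CPM in capillary-like wells, so its vein-like values lay above the rest without passing the test (log2 fold change 0.80 ± 0.52, edgeR, adjusted p = 0.969). Thinned shares of *Lifr* were 77.8% and 72% in vein-like wells, 54.2% and 29.2% in artery-like wells and 39.7% and 23.5% in capillary-like wells.

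*Il6ra*, on chr3:89864059-89913196, was rare in every class. Its mean was 46.8 and 25.1 CPM in artery-like wells, 12.6 and 0.487 CPM in capillary-like wells and 18.5 and 44.1 CPM in vein-like wells, and the median well of each class and replicate had no read of it. Single wells carried these means, the highest artery-like well of replicate 1 holding 1002 CPM. Thinned shares were 11.1% and 10% in vein-like wells, 12.5% and 8.33% in artery-like wells and 3.31% and 0% in capillary-like wells. *Il11ra1*, which binds interleukin-11, had between 12.2 and 39.5 CPM, and *Cntfr*, which binds ciliary neurotrophic factor, had at most 0.399 CPM.

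*Il10rb* ran in the other direction. It is encoded on chr16:91406164-91425834 and had 391 and 413 CPM in artery-like wells, 269 and 115 CPM in capillary-like wells and 162 and 64.8 CPM in vein-like wells. The artery-like values were the highest and the vein-like value the lowest within each replicate. Replicate 1 vein-like wells, at 162 CPM, nevertheless exceeded replicate 2 capillary-like wells in the mean per well, although not in the summed counts, where both vein-like sums lay below all others. The log2 fold change was 1.36 ± 0.51 for artery-like wells and -1.48 ± 0.56 for vein-like wells, each against the mean of the others, and neither passed (edgeR, unadjusted p = 0.0244 and 0.0256, adjusted p = 0.803 and 0.77). After thinning, a read was found in 62.5% and 54.2% of artery-like wells in 52.1% and 17.6% of capillary-like wells and in 55.6% and 28% of vein-like wells, so by this share the capillary-like wells were lowest. In replicate 1 the shares were close, while the median well held 247 CPM in the artery-like and 32.5 CPM in the vein-like class.

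The ligand-binding partners of *Il10rb* were nearly absent. *Il22ra1* and *Il20ra* had 0 reads in all 296 and 243 endothelial wells, and after thinning *Il10ra* had a read in 1 of 296 and 0 of 230 wells (2 and 0 unthinned) and *Ifnlr1*, the interferon-lambda chain, in 2 and 1 wells (4 and 1 unthinned). *Il10rb* itself had a read in 165 of 296 and 70 of 230 thinned wells. The share for *Il10ra* in replicate 1 was 0.338% (exact 95% binomial interval 0.00855% to 1.87%). Intervals cover counting error only, since reads of a well are not independent molecules.

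*Csf2rb*, on chr15:78325752-78353847, had a mean of 342 and 729 CPM in vein-like wells, 207 and 596 CPM in artery-like wells and 161 and 283 CPM in capillary-like wells, and replicate 2 was higher in every class. Within each replicate the order was vein-like, artery-like, capillary-like, but the artery-like value of replicate 2 exceeded the vein-like value of replicate 1. Endothelial wells without a class name had 371 and 495 CPM, above the vein-like value in replicate 1. The vein-like log2 fold change of 0.73 ± 0.38 (SE) did not pass (edgeR, adjusted p = 0.907). Thinned shares were 77.8% and 76% in vein-like wells, 50% and 54.2% in artery-like wells and 43.8% and 41.2% in capillary-like wells. In 8 and 38 mural wells, chosen by pericyte and smooth muscle genes, *Csf2rb* had 6.98 and 3.25 CPM and thinned shares of 12.5% and 7.89%. Mural wells served as a comparison on the assumption, not tested here, that they lack the gene. Without thinning 7 of the 8 mural wells of replicate 1 had a read, so numbers of wells are given after thinning, with the unthinned number beside them for the rarer chains.

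*Csf2rb2* followed the same order in each replicate, with 263 and 702 CPM in vein-like wells, 192 and 508 CPM in artery-like wells and 26.2 and 261 CPM in capillary-like wells. Thinned shares of *Csf2rb2* were 64.8% and 74% in vein-like, 58.3% and 70.8% in artery-like and 14.9% and 41.2% in capillary-like wells. The alpha chains that bind the ligands were found in fewer wells. After thinning, *Csf2ra*, for GM-CSF, had a read in 5 of 296 and 7 of 230 endothelial wells (10 and 7 unthinned) and *Il5ra*, for interleukin-5, in 4 and 8 wells (16 and 24 unthinned). *Il3ra*, for interleukin-3, had a read in 45 and 14 thinned wells (73 and 19 unthinned), or 15.2% and 6.09%, against 12.5% and 7.89% of mural wells, with means of 29.2 and 24.5 CPM in endothelial wells.

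**Figure D2:**
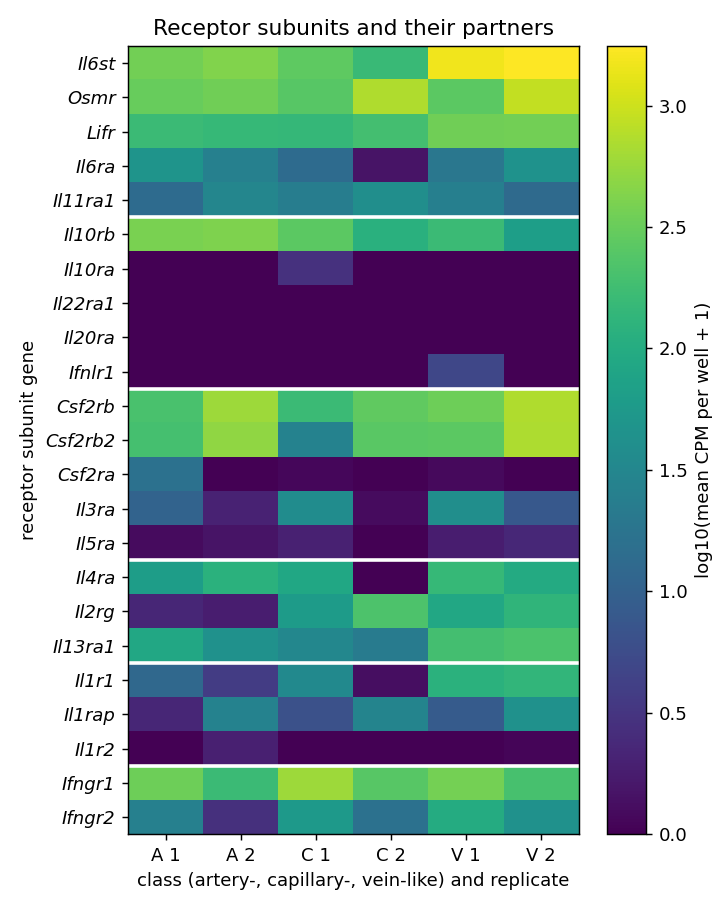
Mean level of receptor subunits and their partners, as log10(mean CPM per well + 1) in colour, with 1 row per gene grouped by receptor family and 1 column per class (A artery-, C capillary-, V vein-like) and replicate. *Il6st* in vein-like wells is brightest, and *Il22ra1* and *Il20ra* are at 0 in all 6 columns beside *Il10rb*.

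The interleukin-1 receptor was low in artery- and capillary-like wells. *Il1r1*, on chr1:40225080-40317257, had 118 and 137 CPM in vein-like wells, 11.3 and 2.8 CPM in artery-like wells and 34.1 and 0.307 CPM in capillary-like wells. Neither vein-like value overlapped any other class value, and thinned shares were 46.3% and 30% in vein-like wells against at most 16.7% in the other classes. Endothelial wells without a class name had 22.1 and 16.9 CPM. On single plates the vein-like means were 114, 120, 80 and 223 CPM. The log2 fold change was 4.40 ± 1.34 (SE) in vein-like wells against the others, with an unadjusted p of 0.00882 and an adjusted p of 0.637 by edgeR. DESeq2 called it, with a log2 fold change of 4.32 and an adjusted p of 0.00584. On the log2 scale the difference was 2.83 in replicate 1 alone and 5.84 in replicate 2 alone, where 1 of 24 capillary-like wells had a read, and it was 1.5 when wells with up to 300 CPM of non-endothelial genes were kept (edgeR, adjusted p = 0.999).

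Mural wells had more *Il1r1* than vein-like wells, 158 and 215 CPM. The 10 mural markers summed to 1160 and 439 CPM in vein-like wells, 1523 and 519 CPM in artery-like wells, 1582 and 315 CPM in capillary-like wells and 20118 and 15412 CPM in mural wells. The 8 fibroblast markers summed to between 91.4 and 389 CPM over the classes and were 144 and 91.4 CPM in vein-like wells. The vein-like mural sum was the lowest of the classes in replicate 1 and lay between the others in replicate 2. Fibroblast markers were at 4168 and 6314 CPM in mural wells. After thinning *Il1rap*, the co-receptor, had a read in 16 and 7 endothelial wells (33 and 15 unthinned), and *Il1r2*, the decoy receptor, in 1 and 1 wells (1 and 5 unthinned).

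**Figure D3:**
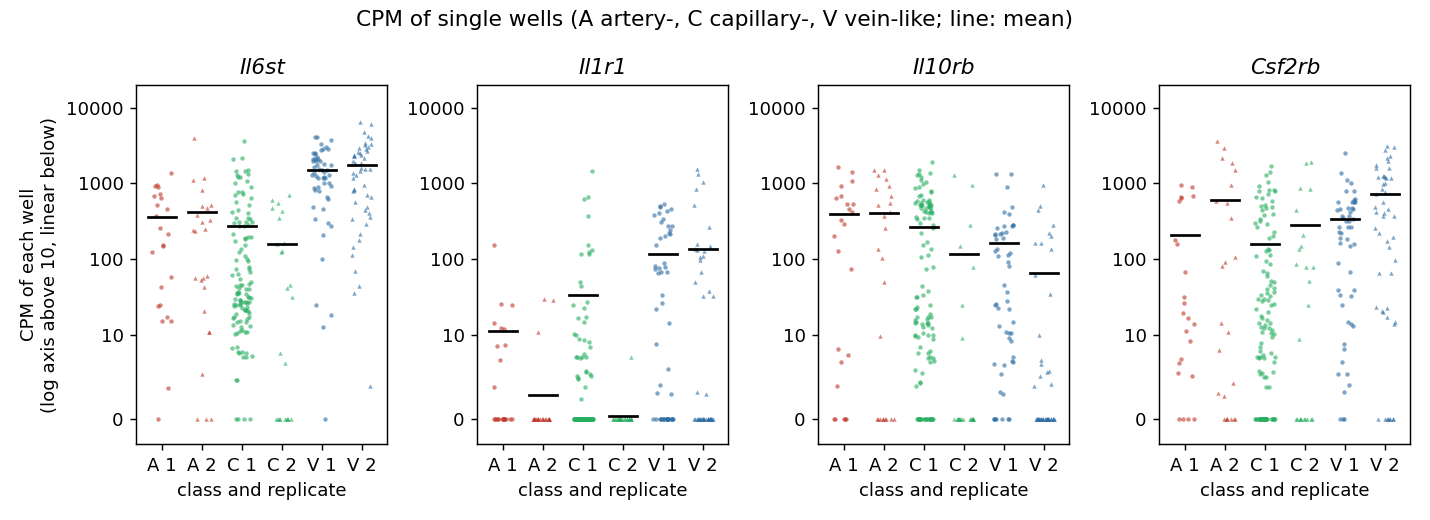
CPM of each well for *Il6st*, *Il1r1*, *Il10rb* and *Csf2rb* (vertical axis logarithmic above 10 CPM and linear below) by class and replicate, with a black line at the mean. For *Il1r1* the vein-like means of 118 and 137 CPM come from wells reaching 539 and 1565 CPM beside many wells at 0, whereas the vein-like means of *Il6st* are 1505 and 1758 CPM.

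The TNF receptors showed no class difference that passed the test. *Tnfrsf1a*, on chr6:125349362-125362484, had 859 and 565 CPM in vein-like wells, 423 and 479 CPM in artery-like wells and 431 and 365 CPM in capillary-like wells. The vein-like value was highest in each replicate and overlapped no other mean per well, but in summed counts the capillary-like value of replicate 2 exceeded the vein-like one, and on single plates the ranges met, with 493 CPM on the lowest vein-like plate and 660 CPM on the highest artery-like plate. The log2 fold change was 0.47 ± 0.37 (SE; edgeR, adjusted p = 1), and it was 0.90 in replicate 1 alone and 0.000424 in replicate 2 alone. *Tnfrsf1b*, on chr4:145213463-145246870, had 132 and 53.5 CPM in artery-like wells, 84.4 and 0.327 CPM in capillary-like wells and 64 and 23 CPM in vein-like wells, with replicate 1 higher throughout. Its vein-like log2 fold change was -0.13 ± 1.34, with a sign that turned in 6 alternatives, and the thinned shares of wells with a read were between 0% and 24.1% in every class.

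*Ifngr1*, on chr10:19591949-19610229, had 585 and 251 CPM in capillary-like wells, 338 and 160 CPM in artery-like wells and 367 and 198 CPM in vein-like wells. By this mean capillary-like wells were highest within each replicate, and replicate 1 was above replicate 2 in every class. Thinned shares were 71.1% and 47.1% in capillary-like, 81.5% and 40% in vein-like and 70.8% and 25% in artery-like wells. By the share, vein-like wells were highest in replicate 1. The capillary-like log2 fold change was 0.73 ± 0.40 (SE; edgeR, adjusted p = 0.971), with 1.18 on plate A alone and 0.00265 on plate B alone. *Ifngr2*, the second chain of the receptor, had 97.5 and 43.1 CPM in vein-like wells, 56 and 15.3 CPM in capillary-like wells and 24.7 and 1.86 CPM in artery-like wells. In replicate 2 the capillary-like value came from 1 of 24 wells, whereas 4 of 25 artery-like wells had a read. Over endothelial wells the thinned shares were 72.3% and 32.2% for *Ifngr1* and 27% and 10% for *Ifngr2*.

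*Il4ra*, on chr7:125552120-125579474, had 148 and 94.8 CPM in vein-like wells, 63.4 and 116 CPM in artery-like wells and 84.7 and 0 CPM in capillary-like wells. None of the 24 capillary-like wells of replicate 2 had a read, which allows a share of wells with a read of up to 12.5% when 3 wells are taken as the limit for a count of 0, and of up to 14.2% by the exact 95% binomial interval. These limits cover counting error alone, and 7 of the 24 wells held fewer than 20000 reads. The vein-like and artery-like values overlapped, and the vein-like log2 fold change was 0.42 ± 1.32 (edgeR, adjusted p = 1) and -0.60 on plate A alone. *Il4ra* pairs with other chains. *Il13ra1*, which completes the receptor shared by interleukin-4 and interleukin-13, had 189 and 213 CPM in vein-like wells, 86.8 and 42.9 CPM in artery-like wells and 30.9 and 21.6 CPM in capillary-like wells (vein-like log2 fold change 2.66 ± 0.75, edgeR, unadjusted p = 0.00582, adjusted p = 0.625).

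*Il2rg*, the common gamma chain, had 1.24 and 0.81 CPM in artery-like wells, 58.7 and 214 CPM in capillary-like wells and 87.6 and 132 CPM in vein-like wells. The artery-like values lay below all others, with an artery-like log2 fold change of -6.66 ± 1.2 (edgeR, unadjusted p = 0.000383, adjusted p = 0.242). This value was -0.93 with the limit of 300 CPM (edgeR, adjusted p = 1), and *Il2rg* passed by DESeq2 (-6.65, adjusted p = 2.83e-07), without the low-count filter (edgeR, adjusted p = 0.000205) and with thinned wells (edgeR, adjusted p = 0.0204). *Il2rg* is known mainly from lymphocytes. The 8 immune markers summed to 0.503 and 0.429 CPM in artery-like wells, 65.1 and 10.4 CPM in capillary-like wells and 6.31 and 7.49 CPM in vein-like wells, and in vein-like wells 4 and 5 of the 8 were at 0.

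**Figure D4:**
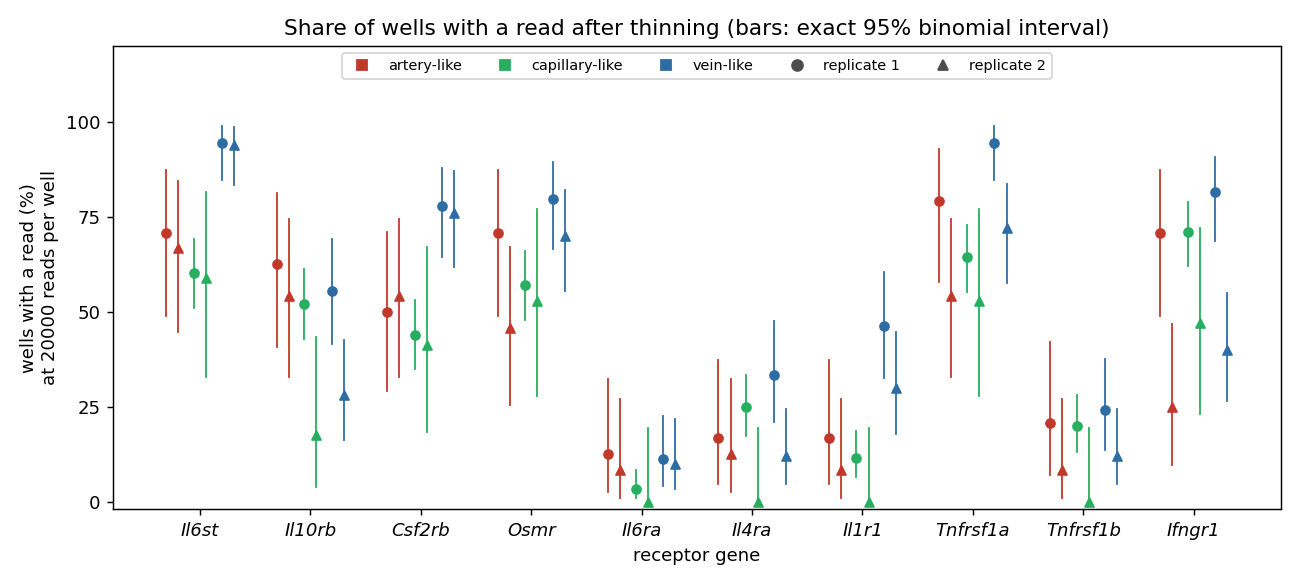
Share of wells with at least 1 read of each receptor gene after thinning to 20000 reads per well (vertical axis, percent), by class and replicate, with bars for the exact 95% binomial interval. *Il6st* reaches 94.4% and 94% in vein-like wells, and *Il6ra* stays at or below 12.5% in every class.

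Counted together, 0 of the 10 receptor genes passed the adjusted threshold in any comparison by edgeR, where the background over the 13993 genes tested was 0.05% for vein-like wells against the mean of the others, 0.0429% for artery-like wells against the mean of the others, 0.0214% for artery-like against vein-like wells, 0% for capillary-like wells and 0.05% for any difference. DESeq2 called 1 of the 10, *Il1r1*, in vein-like wells against the others, beside 2.87% of the genes to which it gave an adjusted p, and against artery-like wells, beside 4.71%. At an unadjusted p under 0.05 by edgeR, 3 of the 10 differed in vein-like wells, *Il6st* and *Il1r1* higher and *Il10rb* lower, beside 6.02% of all genes tested (4.55% higher and 1.47% lower). Between artery-like and vein-like wells 3 of the 10 differed, *Il10rb* higher and *Il6st* and *Il1r1* lower in artery-like wells, beside 6.4% (1.84% higher and 4.57% lower). In artery-like wells against the others it was 1 of 10 (*Il10rb*, higher) beside 5.47% (2.26% higher and 3.22% lower), and in capillary-like wells 1 of 10 (*Il6st*, lower) beside 3.79% (2.47% higher and 1.33% lower). For any difference it was 3 of 10, the same genes as in vein-like wells, beside 4.6%. In summed counts, both vein-like values lay above all 4 others for 2 of the 10 genes (*Il1r1* and *Il6st*), beside 9.41% of all genes tested, and below them for *Il10rb*, beside 4.34%. Both artery-like values lay above all others for *Il10rb*, beside 7.47%, and below them for 0 of 10, beside 9.32%. Both capillary-like values lay below all others for *Il6st* and *Il6ra*, beside 5.95%, and above them for 0 of 10, beside 5.53%. Among the 3 named classes, the mean per well was highest in vein-like wells in both replicates for 4 of the 10 (*Il6st*, *Il1r1*, *Csf2rb* and *Tnfrsf1a*), beside 19% of all genes tested. It was 5 of 10 in replicate 1 alone, beside 36.7%, 6 of 10 in replicate 2 alone, beside 45.5%, and 7 of 10 in both replicates with the limit of 300 CPM, beside 17.6%. The median log2 fold change of the 10 in vein-like wells was 0.44, beside 0.27 over all genes, and in capillary-like wells -1.11, beside -0.05. With n = 2 and 2 residual degrees of freedom, the median dispersion of the summed counts was 1.03.

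**Figure D5:**
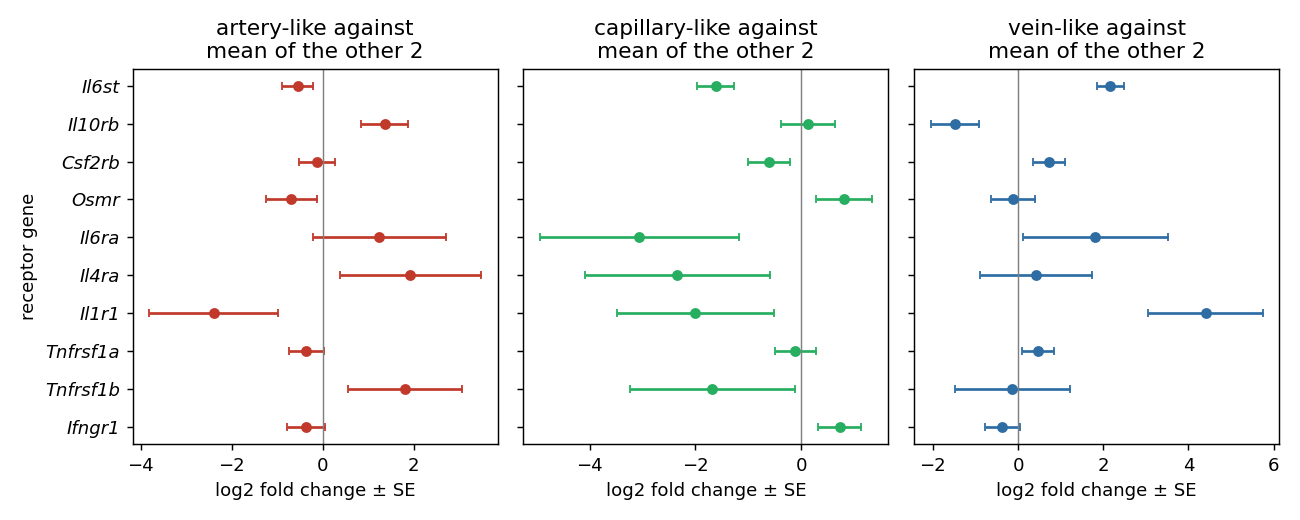
Log2 fold change ± SE of each receptor gene in each class against the mean of the other 2 classes (horizontal axes), from edgeR on summed counts of 2 replicates. In vein-like wells *Il6st* lies at 2.17 with the smallest error, *Il1r1* at 4.40 with a wide one and *Il10rb* at -1.48.

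The signalling and response genes downstream were read from lists, leaving out the receptor genes themselves. Of 8 genes known to respond to the interleukin-6 family, 1 passed in vein-like wells against the others, beside 0.05% of all genes tested: *Lbp*, which encodes the lipopolysaccharide-binding protein, with 493 and 269 CPM in vein-like wells, 9.6 and 18.1 CPM in artery-like wells and 4.51 and 10.3 CPM in capillary-like wells. Its log2 fold change was 6.04 ± 0.67 (edgeR, adjusted p = 0.0189). This call was lost with limma (adjusted p = 0.125) and with the limit of 300 CPM (edgeR, adjusted p = 0.143). It was also lost with clustering and naming without *Selp*, *Sele* and *Lrg1* (edgeR, adjusted p = 0.0882) and with classes from marker scores (edgeR, adjusted p = 0.131). *Lbp* was also high, at 324 and 106 CPM, in the cluster with markers of several cell types. The median of the 8 was 2.44, beside 0.27 over all genes, and all 8 lay above 0, beside 59.3% of all genes tested. At an unadjusted p under 0.05, 4 of the 8 (*Cebpd*, *Fgl2*, *Lbp* and *Socs3*) were higher, beside 4.55%. *Socs3*, the feedback inhibitor induced through gp130, had 1063 and 549 CPM in vein-like wells, 499 and 82.2 CPM in artery-like wells and 318 and 37.4 CPM in capillary-like wells (log2 fold change 2.89 ± 0.71, edgeR, unadjusted p = 0.00245, adjusted p = 0.49). It was 1.14 in replicate 1 alone and 4.27 in replicate 2 alone, and *Socs3* passed without the low-count filter (edgeR, adjusted p = 2.22e-08), on plate B (edgeR, adjusted p = 0.012) and with thinned wells (edgeR, adjusted p = 0.0215).

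Of 11 tested genes of the interleukin-1 and TNF response, 0 passed by edgeR after adjustment, 5 had an unadjusted p under 0.05 and were higher in vein-like wells, beside 4.55% of all genes tested, and the median log2 fold change of the 11 was 2.29. Of 29 adaptors and NF-kB genes, 0 passed and 3 had an unadjusted p under 0.05 and were higher, beside the same 4.55%, with a median of 0.87. *Nfkbia* and *Traf1* were among both the 5 and the 3, so these counts are not separate. Of 12 genes of the interferon-gamma response 0 passed, 0 had an unadjusted p under 0.05 in vein-like wells, beside 6.02% in either direction, and the median was -0.54. Of 18 genes of the JAK-STAT and SOCS list 0 passed, 2 had an unadjusted p under 0.05 and were higher, beside 4.55%, and the median was 0.29, near the 0.27 of all genes. A list of 24 genes known to be induced by enzymatic dissociation of tissue summed to 24933 and 16682 CPM in vein-like wells, 16988 and 18748 CPM in artery-like wells and 13670 and 4633 CPM in capillary-like wells. At an unadjusted p under 0.05, 9 of the 24 were higher in vein-like wells (median log2 fold change 0.73, 19 above 0), beside 4.55% of all genes tested, and 11 of the 24 lower in capillary-like wells (median -1.24), beside 1.33%, and 0 passed by edgeR after adjustment. Their part in the class differences was not tested. *Socs3* belongs to that list too, and is also counted in the JAK-STAT and SOCS list and among the genes responding to the interleukin-6 family. *Selp* and *Sele*, which inflammatory cytokines induce, led the vein-like cluster. When wells were clustered and named anew without *Selp*, *Sele* and *Lrg1*, 83 and 56 wells were vein-like. The log2 fold change of *Il6st* was then 1.58 (edgeR, adjusted p = 0.308).

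Among the receptor families outside the 10, 0 genes passed by edgeR after adjustment. In vein-like wells the 20 partner subunits had 10 tested genes with a median log2 fold change of 1.57, 9 of them above 0, beside 59.3% of all genes tested. At an unadjusted p under 0.05, 4 of the 10 (*Csf2rb2*, *Il13ra1*, *Il27ra* and *Il2rg*) were higher, beside 4.55%. Of these, *Il2rg* was also higher in capillary-like wells (log2 fold change 3.47 ± 0.89, edgeR, unadjusted p = 0.00331), where *Csf2rb2* and *Il13ra1* were lower. *Il27ra* had 0 CPM in artery-like wells of both replicates and 14.8 and 14.2 CPM in vein-like wells. Of 8 tested class I and II receptors 1, *Lepr*, the leptin receptor, had an unadjusted p under 0.05 and was higher (log2 fold change 3.61 ± 0.53, adjusted p = 0.0557, edgeR), beside 4.55%, and the median was 1.03. *Lepr* passed by DESeq2 (adjusted p = 0.00315) and with edgeR without the low-count filter (adjusted p = 2.39e-07), on plate B (5.17, adjusted p = 0.00165) and with thinned wells (adjusted p = 0.00113), and had a log2 fold change of 1.75 with classes from marker scores (edgeR, adjusted p = 0.854). Of 15 tested interleukin-1, interleukin-17 and TNF family receptors 0 had an unadjusted p under 0.05, beside 6.02%, with a median of 0.47.

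The genes with a profile most like a receptor gene over the 12 sums of class and plate were listed by Pearson's r of log2 CPM, over 1750 genes with at least 10 counts in every sum, as a description. For *Il6st* they were *Lmna* (r = 0.89), *Anxa1* (0.88) and *Lgals3* (0.82), and for *Il10rb* they were *Dll4* (r = 0.91), an artery marker used for naming, *Ephx1* (0.89) and *AW112010* (0.88). *Il6st* and *Il10rb* themselves had r = -0.53. For *Tnfrsf1a* they were *Sumo3*, *Gpx1* and *S100a10* (r from 0.85 to 0.89), for *Ifngr1* *Cavin1*, *Tubb4b* and *Myadm* (0.84 to 0.89), for *Osmr* *Pla2g16*, *Rprd1b* and *Zfp260* (0.86 to 0.90) and for *Csf2rb* *Rasa4*, *Abcg2* and *Tsix* (0.81 to 0.83). The 12 sums share animals, depth and class names, and *Il1r1*, *Il6ra*, *Il4ra* and *Tnfrsf1b* had too few counts for this list.

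Promoter sequence was available from RefSeq (GRCm38.p6) for 8 of the 10 genes, and was not analysed here for *Il10rb* and *Csf2rb*. The upstream 250 bases are printed for the 3 of those 8 genes whose mean per well was highest in vein-like wells in both replicates, from 5′ to 3′ on the plus strand, with capitals marking a STAT motif, TTCNNNGAA.
*Il6st*, chr13:112463820-112464069: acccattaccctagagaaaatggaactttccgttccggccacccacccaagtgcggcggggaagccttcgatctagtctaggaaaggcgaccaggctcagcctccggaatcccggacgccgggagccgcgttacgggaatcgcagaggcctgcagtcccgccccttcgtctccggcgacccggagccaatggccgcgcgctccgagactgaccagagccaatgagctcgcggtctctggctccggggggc
*Il1r1*, chr1:40224830-40225079: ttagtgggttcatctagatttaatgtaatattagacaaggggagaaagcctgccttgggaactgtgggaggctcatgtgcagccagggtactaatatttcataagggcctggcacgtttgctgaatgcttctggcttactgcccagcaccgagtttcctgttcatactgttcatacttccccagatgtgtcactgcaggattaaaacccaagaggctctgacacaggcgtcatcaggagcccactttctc
*Tnfrsf1a*, chr6:125349473-125349722: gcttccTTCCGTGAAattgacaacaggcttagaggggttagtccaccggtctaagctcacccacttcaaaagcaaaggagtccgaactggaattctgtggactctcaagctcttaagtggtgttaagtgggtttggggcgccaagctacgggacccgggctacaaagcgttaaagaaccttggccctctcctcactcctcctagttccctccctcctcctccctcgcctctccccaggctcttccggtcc
On either strand of the window from 250 bases before to 50 after the start, TTCNNNGAA was found for *Tnfrsf1a*, 244 bases upstream of the RefSeq start, and for *Tnfrsf1b*, 181 bases upstream, and in 8.3% of all 32851 promoters. An NF-kB motif (GGGA, any base, then TTTCC) was in 0 of the 8 and in 0.411% of all promoters, and a COUP-TF direct repeat (AGGTCA, any base, AGGTCA) in 0 of the 8 and in 0.0396%. These are matches of letters, not sites. The upstream window held 66% G and C for *Il6st*, 55.6% for *Tnfrsf1a* and 48.4% for *Il1r1*. *Il1r1* has a second RefSeq start, with 60.4% in its upstream window at chr1:40266336-40266585, and the RefSeq start of *Tnfrsf1a* lies inside the GENCODE span given above, downstream of the GENCODE start.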

How the data were processed

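Per the labels, SMART-seq2 libraries were sequenced as single 50-base reads, and the authors deposited raw read counts per gene and well, made after they had removed duplicate reads. The submitters' processing notes name TopHat2 2.1.1, SAMtools 0.1.18, Subread 1.4.6-p5 and mm10/GRCm38. Spike-in rows (0.268% to 2.56% of reads) were left out. Wells were kept with at least 600 reads, 500 to 8000 genes, a read of 2 of *Pecam1*, *Cdh5* and *Kdr*, and less than 100 CPM for *Lyve1*, *Prox1*, *Ptprc*, *Kcnj8* and *Pdgfrb* singly. Leiden clusters (resolution 0.8) of 1000 variable genes, without the receptor genes and pathway lists, took the class with most markers at least 1.25 times higher in both replicates, if 1 of these was among the 10 leading genes, a rule added after the leading genes had been seen. No doublet caller was run.

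Counts were summed per replicate and class and tested with edgeR 4.0.16 (TMM, quasi-likelihood, 13993 genes with 10 counts in 2 sums, Benjamini-Hochberg over all). Each SE was derived from that test, as the absolute log2 fold change divided by the square root of the test statistic F. The replicate was a block, on the assumption, which the labels do not state, that the classes of a replicate share their animals and sort. Same-replicate sums deviated together only weakly (correlations 0.112 to 0.113). The p-values take the classes as given. DESeq2 1.42.0, limma 3.58.1, scran 1.30.0 and leidenalg 0.10.2 served alternatives or clustering, and the test was checked on simulated data. Named genes are the receptor genes, their partners, listed genes that passed and, for each receptor gene, the 3 most alike; other listed genes were named after their values were seen. The receptor genes and lists were chosen with earlier results of these data known.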

Additional observations from a re-analysis of the deposited data

Results flagged for a closer look

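Over the 4 plates, 5 of 40 combinations of a receptor gene and a well group had 1 plate whose gap to its nearest neighbour, as a share of the range, exceeded Dixon's 95% critical value for 4 values, where chance gives about 5% of groups. *Osmr* had 1182 CPM in the capillary-like wells of replicate 2 plate B, against 163 to 269 CPM on the other plates. *Il4ra* had 330.2 CPM in artery-like wells of replicate 2 plate A, against 33.4 to 63.6 CPM, and 121 CPM over all endothelial wells of replicate 1 plate A, against 64.6 to 72.5 CPM. *Il1r1* had 14.2 CPM in artery-like wells of replicate 1 plate B, against 2.26 to 4.18 CPM. *Il6ra* had 22.9 CPM in capillary-like wells of replicate 1 plate B, against at most 1.07 CPM. There were 7 artery-like wells on replicate 2 plate A and 13 capillary-like wells on replicate 2 plate B.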

How the results depend on the processing

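The number of genes called by edgeR was small and moved with the settings. It was 3 for artery-like against vein-like wells, 6 for artery-like, 0 for capillary-like and 7 for vein-like wells each against the others, and 7 for any difference. In the same order, the DESeq2 Wald test called 544, 529, 218, 339 and 200 genes, no low-count filter gave 104, 94, 80, 105 and 178, plate A alone 29, 33, 25, 37 and 57, plate B alone 22, 22, 8, 36 and 43, wells thinned to 20000 reads 50, 34, 6, 58 and 68, and limma on mean CPM 6, 0, 0, 0 and 0. Requiring all 3 endothelial genes gave 8, 0, 0, 22 and 15, clustering and naming without *Selp*, *Sele* and *Lrg1* 1, 1, 0, 4 and 2, and classes from marker scores 0, 0, 0, 6 and 0. For artery-like wells against the others, DESeq2 size factors gave 3, the limit of 300 CPM 0, and for capillary-like wells the next higher resolution gave 1. Naming by the planned rule, without the leading-gene rule added after seeing the data, gave 0 for artery-like wells and 4 for any difference. The 6 edgeR calls for artery-like wells were therefore not made under the planned naming. The cause of these moves was not tested. Without the replicate block the counts were 1, 0, 0, 3 and 2, and the block changed no call of a receptor gene.

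*Il6st* passed in vein-like wells without a low-count filter (adjusted p = 1.34e-08), on plate A (0.00301), on plate B (0.0403), with thinned wells (0.000678) and with all 3 endothelial genes (0.0371), all by edgeR. Its log2 fold change ranged from 1.15 to 2.71. Its artery-like minus vein-like value ranged from -2.55 to -1.13 and its capillary-like value from -1.96 to -0.26, with the calls given in the report. Vein-like values ranged from 1.5 to 5.88 for *Il1r1*, from -2.02 to -0.75 for *Il10rb*, from 0.48 to 1.31 for *Csf2rb*, from 0.000424 to 1.07 for *Tnfrsf1a*, from 1.75 to 5.17 for *Lepr* and from 0.86 to 4.27 for *Socs3*, the capillary-like value of *Ifngr1* from 0.00265 to 1.18 and the artery-like value of *Il2rg* from -7.83 to -0.93, so those of *Tnfrsf1a* and *Ifngr1* reached almost 0. The vein-like value of *Osmr*, -0.11, turned to 0.37 with limma, 0.60 on plate A, 0.11 with thinned wells, 0.27 with the limit of 300 CPM, 0.40 with all 3 endothelial genes, 0.037 without *Selp*, *Sele* and *Lrg1*, 0.25 with marker scores and 0.092 with replicate 1 left out (-0.00021 with replicate 2 left out). That of *Tnfrsf1b*, -0.13, turned to 0.39 with limma, 0.12 with the limit of 300 CPM, 0.088 without *Selp*, *Sele* and *Lrg1*, 0.30 with marker scores, 0.30 without the leading-gene rule and 2.05 with replicate 1 left out (-1.04 with replicate 2 left out). That of *Il4ra*, 0.42, turned to -0.60 on plate A. Of the 10 receptor genes, 4 were highest in vein-like wells in both replicates (19% of all genes tested), 7 with the limit of 300 CPM (17.6%), 5 with replicate 2 left out (36.7%) and 6 with replicate 1 left out (45.5%). The kept wells fell to 247 with the limit of 10 CPM, where no class test was run because the 3 classes were not found, and artery-, capillary- and vein-like wells together numbered 512 with the limit of 300 CPM.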

Other observations

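Ligands of these receptors were mostly not detected in the endothelial classes. Of 27 listed ligand genes, between 15 and 21 were at 0 in each class and replicate. The 27 summed to 353 and 464 CPM in vein-like wells, 239 and 246 CPM in artery-like wells and 137 and 115 CPM in capillary-like wells. By summed counts *Tnfsf10* had 168 and 64.7 CPM in artery-like, 73.4 and 11.9 CPM in capillary-like and 45.4 and 59.9 CPM in vein-like wells. The sums therefore do not measure the ligands of the 10 receptor genes alone. Of the 6 tested, 0 passed by edgeR, and *Il6* had an unadjusted p under 0.05 in vein-like wells, where it was higher, beside 4.55% of all genes tested.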
